A study of Mus musculus with 12 samples.

Results

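The data describe 10 genes that act as feedback targets of canonical Wnt signalling in the developing upper face of the mouse: Lef1, Tcf7, Axin2, Nkd1, Nkd2, Apcdd1, Notum, Rnf43, Znrf3 and Sp5. They were chosen by name, as intracellular, membrane-bound and secreted genes known to respond to the pathway, with earlier results of these data known. All 10 were found among the 53801 genes counted in each library. Polyadenylated RNA had been sequenced from maxillary prominences, the paired facial swellings that form the upper jaw and palatal shelves. Embryos were wild type C57BL/6 and of 4 stages, named by embryonic day: E10.5 and E11.5, then E12.5, then E14.5. Each stage has 3 libraries, 12 in all. The title of E14.5 replicate 1 names 2 parts, so its single file may combine them, and it was used as 1 library. The labels name 7 littermates as the source of the tissue without saying whether that number is per library. No group was treated, and no allele differed between groups. The libraries of a stage are called biological replicates, but separate litters are not stated, so the p-values rest on the spread from library to library, which may be technical in part.

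In canonical Wnt signalling a secreted ligand binds a Frizzled receptor and its LRP partner at the cell surface. Beta-catenin then escapes destruction, enters the nucleus and joins TCF/LEF factors on DNA, where it turns on target genes. Many of those targets damp the pathway again, so their transcripts are widely used as a readout of signalling. In the embryonic face the pathway is known for its part in outgrowth and fusion of the prominences, and mouse mutants of several pathway genes have clefts or lack teeth. Lef1 and Tcf7 encode TCF/LEF factors and Sp5 a zinc finger repressor. Axin2 is a scaffold of the beta-catenin destruction complex, and Nkd1 and Nkd2 bind Dishevelled. Rnf43 and Znrf3 are membrane ubiquitin ligases that remove Frizzled from the cell surface, Apcdd1 is a membrane inhibitor, and Notum is a secreted enzyme that strips the lipid from Wnt ligands.

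The core sequence read by TCF/LEF factors was searched in the 250 bases upstream of annotated starts, because 9 members were lower at the same step, from E11.5 to E12.5. RefSeq windows on GRCm38.p6, the assembly of mm10, were used for 7 members, and Apcdd1, Notum and Znrf3 are named only. The search on both strands covered CTTTGAT, its variant CTTTGAA and the further variant CTTTGTT. None of the 3 can overlap another on the same strand, while matches on opposite strands can share end bases. At least 1 of the 3 occurs in 12.0% of all 32851 windows of the same length, CTTTGAT in 3.21% and CTTTGTT in 5.03%. Among the 12 windows of the 7 members, that of Sp5 held 2 matches and the other 11 held none. The Sp5 window (chr2:70474673-70474922, plus strand) has AACAAAG, the reverse complement of CTTTGTT, from base 222 upstream of the start, and CTTTGAT from base 104. The windows of Lef1 (chr3:131110073-131110322, plus strand) and Axin2 (chr11:108920099-108920348, plus strand) are shown beside it as members without a match. Capitals mark the matches. A match is a description of the sequence, and a window without one says only that these letters are not in it.

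Sp5: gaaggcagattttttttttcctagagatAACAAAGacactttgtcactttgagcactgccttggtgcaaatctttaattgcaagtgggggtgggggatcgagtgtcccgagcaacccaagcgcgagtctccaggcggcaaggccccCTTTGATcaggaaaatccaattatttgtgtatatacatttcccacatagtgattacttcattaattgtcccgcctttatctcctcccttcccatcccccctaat

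Lef1: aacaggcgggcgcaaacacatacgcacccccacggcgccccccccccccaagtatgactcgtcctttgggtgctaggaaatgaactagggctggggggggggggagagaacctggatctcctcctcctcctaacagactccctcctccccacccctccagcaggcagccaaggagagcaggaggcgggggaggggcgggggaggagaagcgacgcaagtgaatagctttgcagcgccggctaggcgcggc

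Axin2: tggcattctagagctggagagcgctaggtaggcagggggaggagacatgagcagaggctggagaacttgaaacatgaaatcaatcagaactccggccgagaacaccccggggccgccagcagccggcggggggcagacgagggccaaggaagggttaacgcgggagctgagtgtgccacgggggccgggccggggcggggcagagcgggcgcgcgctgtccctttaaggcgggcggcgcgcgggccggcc

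Most of the 10 genes had their highest level at E11.5 and a low level at E12.5. Levels are CPM (counts per 1e6 counts in genes) after scaling of each library by TMM, which evens out differences in RNA composition. Changes are log2 fold changes of the later over the earlier stage with their standard error (SE), from edgeR's quasi-likelihood test on all 12 libraries. A gene was called where p, adjusted by the Benjamini-Hochberg method over 18365 tested genes, was under 0.05. All 10 members passed the filter on low counts and all 10 differed among the 4 stages, against 81.6% of all tested genes. At E11.5 against E10.5, 7 members were higher and 1 lower, against 12.2% and 12.9% of all tested genes. At E12.5 against E11.5, 9 were lower and 1 higher, against 22.2% and 27.1%. At E14.5 against E12.5, 6 were higher, against 23.0% of all tested genes, and 0 lower, against 24.0%; by edgeR at an unadjusted p under 0.05, by limma-voom and by DESeq2 the number lower was also 0. The median log2 fold change of the members was 0.94, -1.36 and 0.58 at these steps, and that of all tested genes was -0.04, 0.06 and -0.01. The members were chosen with earlier results of these data known, so their counts beside these shares are a description and not a test. Consecutive steps share the libraries of the stage between them. Fewer cells of a type and less RNA per cell cannot be told apart in bulk tissue.

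**Figure D1:**
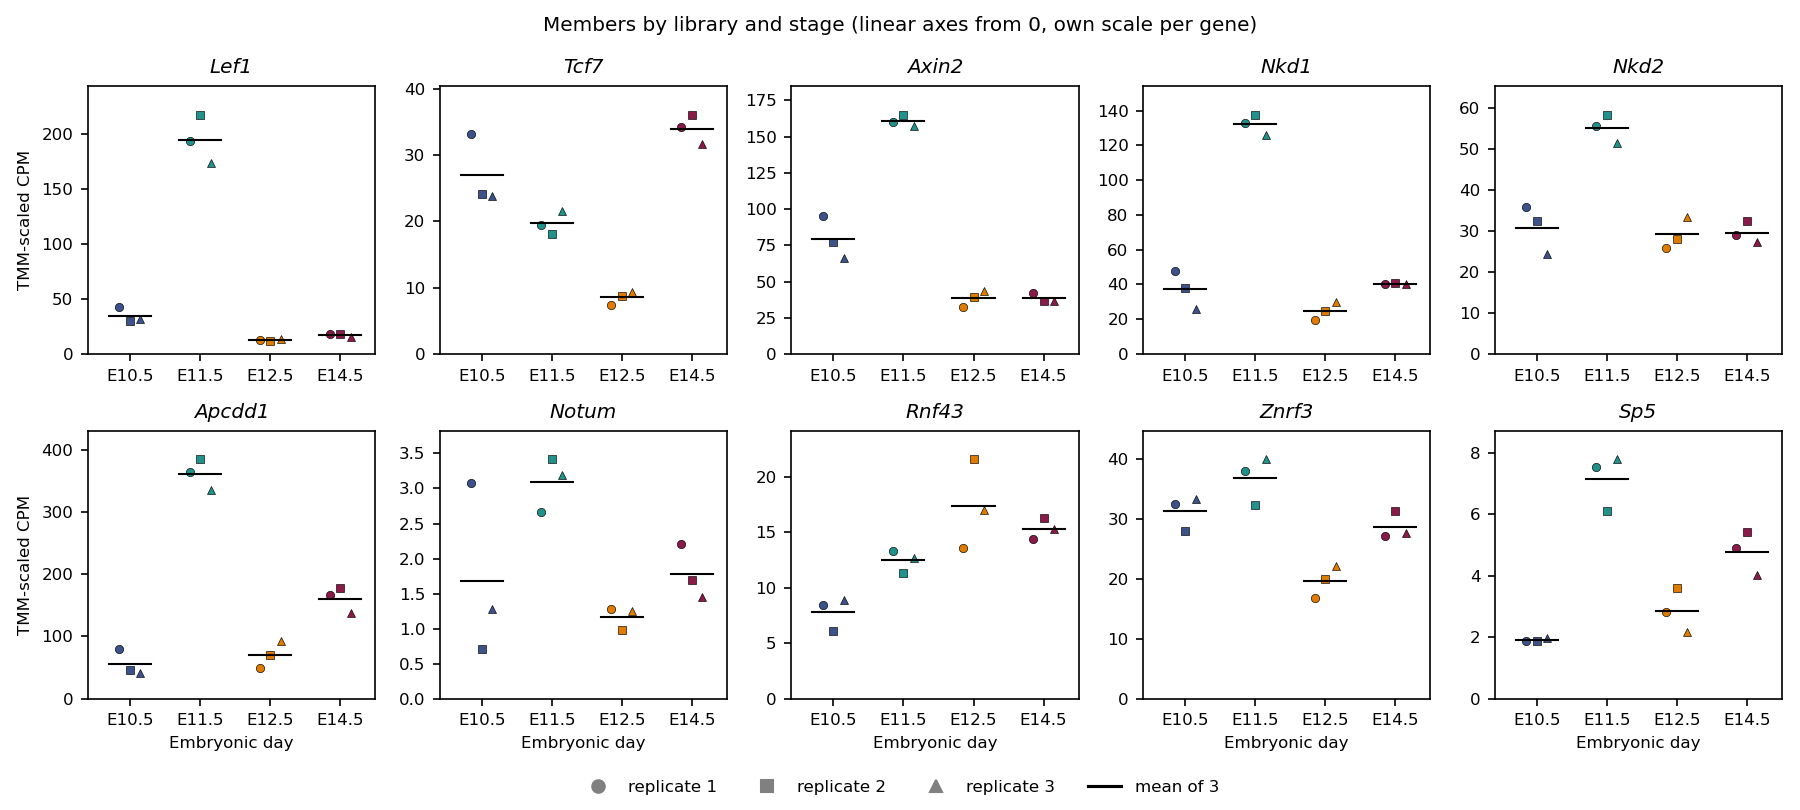
TMM-scaled CPM (vertical axes, linear from 0, with a scale of its own for each gene) of the 10 members in the 12 libraries by embryonic day; each point is a library, its shape the replicate number, and each line the mean of 3. Lef1, Axin2, Nkd1, Nkd2, Apcdd1 and Sp5 stand highest at E11.5 without overlap with another stage, Rnf43 has its highest mean at E12.5 and Tcf7 at E14.5.

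Lef1 showed the largest fall of the 10 at the step to E12.5. The gene, ENSMUSG00000027985, lies on the plus strand of mm10 chromosome 3 (131110471 to 131224356). It measured 43.1, 29.6 and 32.2 CPM at E10.5 and 193.5, 217.7 and 173.7 CPM at E11.5. At E12.5 it measured 12.9, 12.2 and 13.2 CPM, and at E14.5 18.3, 18.3 and 15.3 CPM. Every E11.5 library lay far above all others, and no pair of stages overlapped. Lef1 rose by 2.48 on the log2 scale at E11.5 (SE 0.13, adjusted p = 1.24e-07), a 5.58-fold difference. At E12.5 it fell by 3.93 (SE 0.15, adjusted p = 9.03e-09), 15.3-fold, to 6.55% of its E11.5 mean. The small rise at E14.5 (log2 fold change 0.44, SE 0.14, adjusted p = 0.0186) did not pass without E12.5 replicate 1 (adjusted p = 0.0509) or 2 (0.0632), or without E14.5 replicate 1 (0.0643) or 2 (0.0626). Exons of Gm43352 on the opposite strand cover 13.7% of the Lef1 exons, and libraries of this kit do not mark strand. Gm43352 reached at most 1.99 CPM in any library.

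Tcf7, the other TCF/LEF factor among the members, followed a different course. The gene, ENSMUSG00000000782, lies on the minus strand of chromosome 11 (52252371 to 52283014). It measured 33.1, 24.1 and 23.8 CPM at E10.5, 19.4, 18.1 and 21.6 CPM at E11.5, 7.42, 8.74 and 9.41 CPM at E12.5, and 34.3, 36.1 and 31.6 CPM at E14.5. Its low point was E12.5, and the E14.5 libraries were highest apart from an overlap with E10.5 replicate 1. Tcf7 was the single member called lower at E11.5 (log2 fold change -0.45, SE 0.13, adjusted p = 0.0232). That call was lost without E10.5 replicate 1 (log2 fold change -0.28, adjusted p = 0.117), E11.5 replicate 1 (adjusted p = 0.0750) or E11.5 replicate 2 (0.0993). It fell by 1.21 at E12.5 (SE 0.14, adjusted p = 3.19e-05) and rose by 2.00 at E14.5 (SE 0.14, adjusted p = 2.75e-07), 3.99-fold, the largest rise of the 10 at that step.

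Sp5, a repressor at many Wnt targets, was scarce and is the member whose upstream window held the motif matches printed above. ENSMUSG00000075304 lies on chromosome 2 (70474923 to 70477729, plus strand). It measured 1.89, 1.89 and 1.97 CPM at E10.5 and 7.55, 6.11 and 7.79 CPM at E11.5. It stood at 2.81, 3.60 and 2.18 CPM at E12.5 and at 4.90, 5.41 and 4.02 CPM at E14.5. The stages did not overlap. Sp5 rose by 1.90 at E11.5 (SE 0.21, adjusted p = 2.62e-05), fell by 1.32 at E12.5 (SE 0.20, adjusted p = 0.000219) and rose by 0.74 at E14.5 (SE 0.20, adjusted p = 0.00847).

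The TCF/LEF family as a whole was compared per length, in TPM (transcripts per 1e6 transcripts) over the merged annotated exons. Lef1 made up 12.9% ± 1.2, 48.6% ± 4.1, 5.43% ± 0.81 and 5.20% ± 0.46 of the summed TPM of Lef1, Tcf7, Tcf7l1 and Tcf7l2 over the 4 stages in order (SD, n = 3 each). The share of Tcf7 was 33.5% ± 3.2, 16.5% ± 2.0, 12.0% ± 0.9 and 34.2% ± 1.9 at the same stages. Tcf7l1, known mostly as a repressor, had the highest mean share at E10.5 (39.9% ± 4.0), E12.5 (57.2% ± 3.0) and E14.5 (45.2% ± 1.5), and stood at 24.6% ± 2.0 at E11.5. At E10.5 the shares of Tcf7l1 and Tcf7 overlapped. Tcf7l2 took 13.7% ± 0.3, 10.3% ± 0.5, 25.4% ± 1.5 and 15.4% ± 1.1. In CPM, Tcf7l1 was called higher at E12.5 against E11.5 (61.4 ± 13.9 and 43.9 ± 3.3 CPM, log2 fold change 0.48, adjusted p = 0.00631), and so was Tcf7l2 (60.1 ± 6.7 and 41.1 ± 1.1 CPM, log2 fold change 0.55, adjusted p = 0.00052). Merged exon length counts long rare exons as fully as common ones, so the shares depend on the annotation. For Lef1 this length includes the 13.7% of exons that overlap Gm43352, where reads may have been counted to neither gene. Changes of a share between stages use the same lengths.

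**Figure D2:**
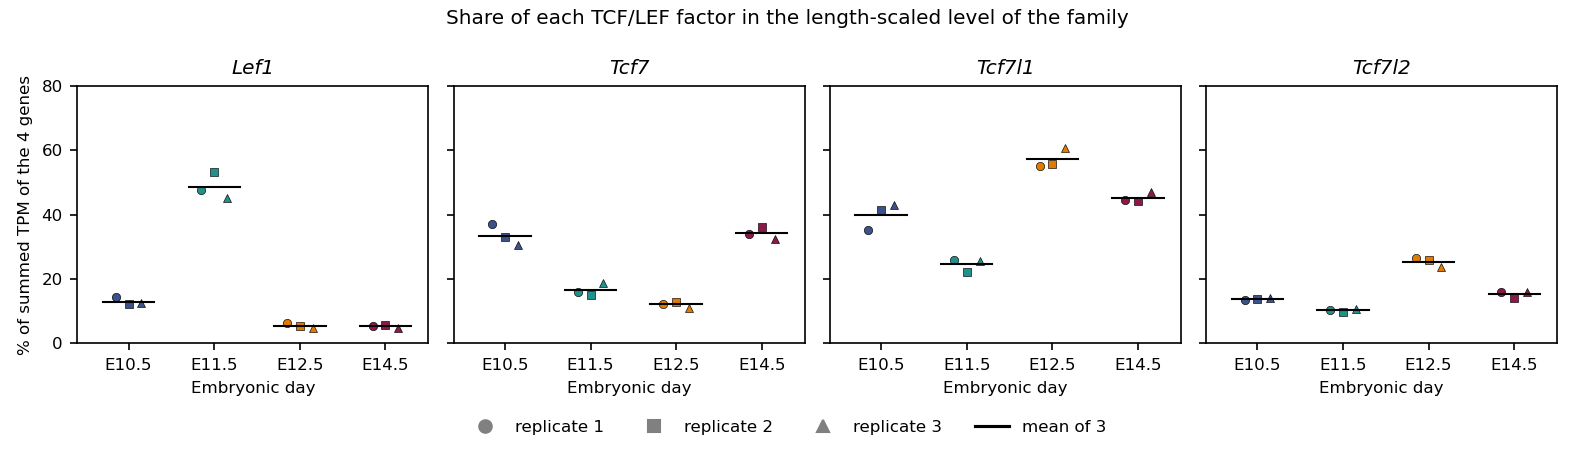
Share of Lef1, Tcf7, Tcf7l1 and Tcf7l2 in the summed TPM of these 4 genes (vertical axis, percent) by embryonic day, with a point per library and a line at the mean of 3. The Lef1 share lies at 45.1% to 53.2% at E11.5 and at 4.65% to 14.3% in the libraries of the other stages.

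The cytoplasmic members Axin2, Nkd1 and Nkd2 all had their highest level at E11.5. Axin2 (ENSMUSG00000000142, chromosome 11, 108920349 to 108950783, plus strand) measured 95.4, 77.1 and 66.3 CPM at E10.5 and 159.9, 165.1 and 157.3 CPM at E11.5. It measured 32.7, 39.2 and 43.8 CPM at E12.5 and 42.2, 36.9 and 36.4 CPM at E14.5. The last 2 stages overlapped and lay below both earlier ones. Axin2 rose by 1.01 at E11.5 (SE 0.13, adjusted p = 8.05e-05) and fell by 2.06 at E12.5 (SE 0.13, adjusted p = 3.69e-07). At E14.5 its log2 fold change was -0.0031 (SE 0.13, adjusted p = 0.988), and the level stood at 23.9% of the E11.5 mean. A gene on the opposite strand, Gm11670, overlaps 3.8% of its exons and reached at most 0.461 CPM. As for Lef1, reads in the overlap may be missing from both counts.

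Nkd1 (ENSMUSG00000031661, chromosome 8, 88521354 to 88594884, plus strand) measured 47.9, 37.8 and 26.0 CPM at E10.5 and 132.8, 137.6 and 125.8 CPM at E11.5. It measured 19.6, 24.8 and 29.7 CPM at E12.5 and 40.2, 41.1 and 40.0 CPM at E14.5. The E11.5 libraries were far above the rest, E10.5 and E12.5 overlapped, and E14.5 lay inside the E10.5 range. Nkd1 rose by 1.83 at E11.5 (SE 0.18, adjusted p = 1.13e-05), fell by 2.42 at E12.5 (SE 0.18, adjusted p = 1.45e-06) and rose by 0.71 at E14.5 (SE 0.18, adjusted p = 0.00555).

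Nkd2 (ENSMUSG00000021567, chromosome 13, 73818534 to 73847631, minus strand) was also highest at E11.5, with smaller changes. It measured 35.9, 32.4 and 24.4 CPM at E10.5 and 55.6, 58.5 and 51.6 CPM at E11.5. It measured 26.0, 28.2 and 33.6 CPM at E12.5 and 29.1, 32.4 and 27.4 CPM at E14.5. Outside E11.5 the 3 stages overlapped. It rose by 0.84 at E11.5 (SE 0.13, adjusted p = 0.000524), fell by 0.92 at E12.5 (SE 0.13, adjusted p = 0.000162) and had a log2 fold change of 0.02 at E14.5 (SE 0.13, adjusted p = 0.921).

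Apcdd1 (ENSMUSG00000071847), a membrane protein that binds Wnt ligands and LRP5, had the largest rise of the 10 at E11.5. It measured 80.4, 45.9 and 41.9 CPM at E10.5 and 365.4, 385.3 and 336.0 CPM at E11.5. It measured 48.7, 70.0 and 92.7 CPM at E12.5 and 166.2, 178.2 and 138.0 CPM at E14.5. The E11.5 libraries were highest, those of E14.5 came next, and E10.5 and E12.5 overlapped. Apcdd1 rose by 2.69 at E11.5 (SE 0.25, adjusted p = 7.00e-06), 6.46-fold, and fell by 2.36 at E12.5 (SE 0.25, adjusted p = 1.55e-05). It rose again by 1.19 at E14.5 (SE 0.24, adjusted p = 0.00121), to 44.4% of its E11.5 mean.

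The ubiquitin ligases Rnf43 and Znrf3 did not share a course. Rnf43 (ENSMUSG00000034177, chromosome 11, 87662722 to 87735539, plus strand) measured 8.45, 6.14 and 8.88 CPM at E10.5 and 13.4, 11.4 and 12.7 CPM at E11.5. It measured 13.6, 21.6 and 17.1 CPM at E12.5 and 14.4, 16.3 and 15.3 CPM at E14.5. E10.5 lay below all later stages, and E14.5 lay within the range of E12.5. Rnf43 rose by 0.67 at E11.5 (SE 0.17, adjusted p = 0.0118) and was the single member called higher at E12.5 (log2 fold change 0.48, SE 0.17, adjusted p = 0.0283). The second call was lost without E11.5 replicate 2 (adjusted p = 0.0999) or 3 (0.0664), and without E12.5 replicate 2 (log2 fold change 0.30, adjusted p = 0.148) or 3 (0.0624). At E14.5 its log2 fold change was -0.18 (SE 0.16, adjusted p = 0.383).

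Znrf3 (ENSMUSG00000041961, chromosome 11, 5276324 to 5444847, minus strand) measured 32.5, 28.0 and 33.4 CPM at E10.5 and 38.1, 32.4 and 40.0 CPM at E11.5. It measured 16.8, 19.9 and 22.1 CPM at E12.5 and 27.2, 31.4 and 27.7 CPM at E14.5. The E12.5 libraries were lowest without overlap, while E10.5 overlapped with E11.5 and with E14.5. Its log2 fold change at E11.5 was 0.23 (SE 0.12, adjusted p = 0.164). It fell by 0.91 at E12.5 (SE 0.12, adjusted p = 7.49e-05) and rose by 0.55 at E14.5 (SE 0.12, adjusted p = 0.00185).

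Notum (ENSMUSG00000042988, chromosome 11, 120653788 to 120661175, minus strand), the secreted member, was the scarcest, with 19 to 99 counts per library. It measured 3.07, 0.702 and 1.28 CPM at E10.5, 2.67, 3.42 and 3.20 CPM at E11.5, 1.28, 0.978 and 1.25 CPM at E12.5, and 2.21, 1.70 and 1.44 CPM at E14.5. E10.5 spanned nearly the whole range of the other stages. Notum fell by 1.40 at E12.5 (SE 0.40, adjusted p = 0.0109). At E11.5 the log2 fold change was 0.87 (SE 0.39, adjusted p = 0.121), and without E10.5 replicate 1 it was 1.63 and passed (adjusted p = 0.00319), as it did with limma-voom (0.0415) and without the filter on low counts (0.0256). At E14.5 it was 0.60 (SE 0.40, adjusted p = 0.238). Exons of Notumos and Myadml2os on the opposite strand cover 38.1% of the Notum exons. Without strand their reads cannot be told apart from Notum there, and the 2 genes reached at most 0.427 and 0.181 CPM. Reads in that stretch may also have been counted to neither gene, which would lower all of these values.

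**Figure D3:**
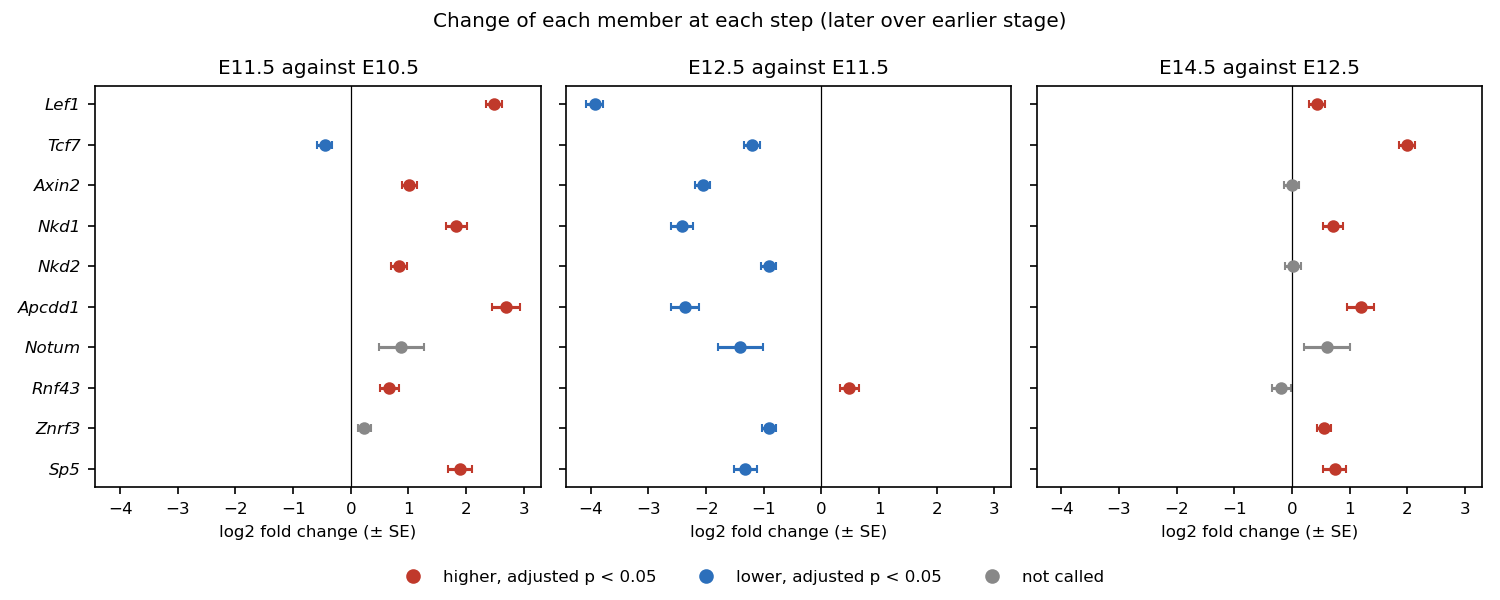
Log2 fold change of the later over the earlier stage (horizontal axes, shared scale) for each member at the 3 consecutive steps; bars are ± SE, red marks higher and blue lower at adjusted p under 0.05, grey not called. Lef1 stands at 2.48 for E11.5 against E10.5 and at -3.93 for E12.5 against E11.5, Rnf43 is on the higher side at E12.5, and no member is called lower at E14.5.

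In terms of course, 6 members rose at E11.5 and fell at E12.5, a peak that 2.79% of all tested genes had: Lef1, Axin2, Nkd1, Nkd2, Apcdd1 and Sp5. Another 6 fell at E12.5 and rose at E14.5, as did 3.02% of all tested genes: Lef1, Tcf7, Nkd1, Apcdd1, Znrf3 and Sp5. Lef1, Nkd1, Apcdd1 and Sp5 did both, against 1.02%. As above, these counts describe a list chosen with earlier results of these data known. For Lef1 the second part of that course rests on the small rise at E14.5 described above. The extent of the return differed among them. The E14.5 mean was 8.88% of the E11.5 mean for Lef1, 30.6% for Nkd1, 44.4% for Apcdd1 and 66.8% for Sp5. For Tcf7 it was 172.6%. These percentages are of TMM-scaled CPM and change with the scaling. In TPM, Sp5 averaged 9.15 at E14.5 and 9.62 at E11.5, and these libraries overlapped. Apcdd1 averaged 50.2 and 79.4 TPM at these stages, Nkd1 35.7 and 81.8, Lef1 7.93 and 62.6, and Tcf7 52.2 and 21.2. The highest TPM means of Rnf43 and Znrf3 were at E14.5, at 9.405 and 14.7. In TPM the E14.5 libraries overlapped with E12.5 for Rnf43 and with E11.5 for Znrf3.

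Ratios of counts within a library asked whether related members moved unequally, since depth cancels. The ratios are not per length, so they compare stages and not the levels of the paired genes. The count of Lef1 over that of Tcf7 was 1.23 to 1.36 in E10.5 libraries, 8.05 to 12.0 in E11.5 libraries, 1.39 to 1.74 in E12.5 libraries and 0.484 to 0.534 in E14.5 libraries. The log2 ratio therefore averaged 0.37 ± 0.07, 3.30 ± 0.29, 0.59 ± 0.18 and -0.98 ± 0.07 (SD, n = 3 each). Nkd1 over Nkd2 averaged 0.24 ± 0.17, 1.26 ± 0.03, -0.26 ± 0.13 and 0.45 ± 0.10 on the same scale. Rnf43 over Znrf3 averaged -2.01 ± 0.15, -1.56 ± 0.08, -0.19 ± 0.27 and -0.91 ± 0.05, with its highest value at E12.5. All 3 ratios differed among the stages in a two-sided exact permutation test over the 369600 arrangements of the libraries. Adjusted over the 3 ratios, p was 9.74e-05 for Lef1 over Tcf7, 0.00013 for Nkd1 over Nkd2 and 9.74e-05 for Rnf43 over Znrf3. For the first and last of these the unadjusted p of 6.49e-05 is the smallest the test can give. At each single step the ratios did not overlap between stages. A permutation test of 3 against 3 libraries gave p = 0.10 there, the smallest value it can give. The paired genes come from the list chosen with earlier results of these data known. Of all tested genes 81.6% differed among the stages, so ratios of many other pairs may change too. Ratios of other pairs were not computed, and these p-values do not set the 3 pairs apart.

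**Figure D4:**
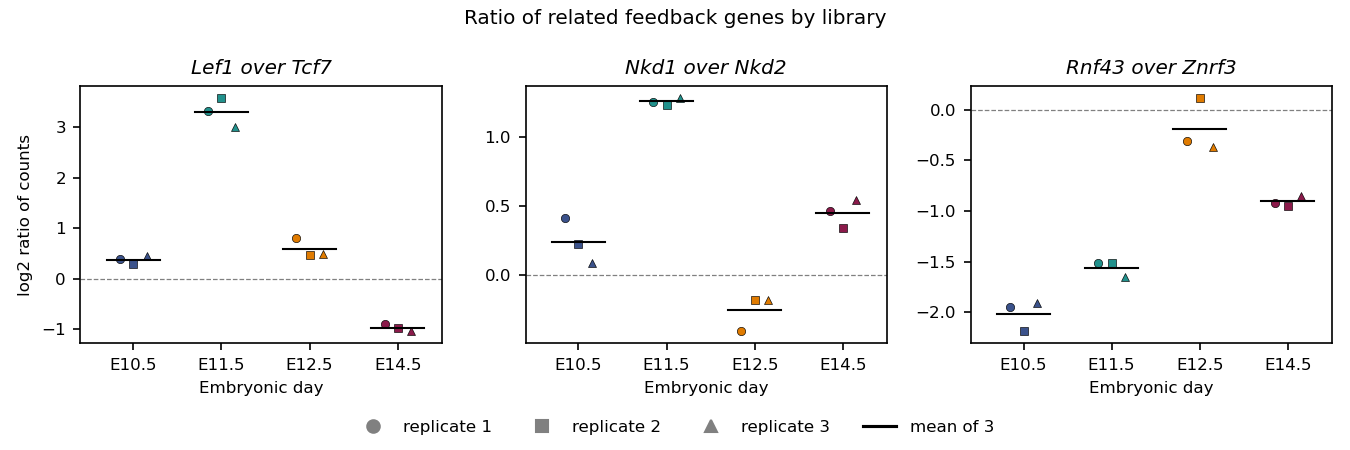
Log2 ratio of counts (vertical axes, own scale for each pair) of Lef1 over Tcf7, Nkd1 over Nkd2 and Rnf43 over Znrf3 by embryonic day, with a point per library, a line at the mean of 3 and a dashed line at equal counts. Lef1 over Tcf7 averages 3.30 at E11.5 and -0.98 at E14.5, and Rnf43 over Znrf3 averages -0.19 at E12.5.

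Both later stages were also compared with E10.5, whose libraries these 2 comparisons share. At E12.5, 2 members were higher than at E10.5 and 5 lower, against 28.0% and 25.5% of all tested genes. Lower were Lef1 (log2 fold change -1.45, adjusted p = 1.86e-06), Tcf7 (-1.66, adjusted p = 6.73e-07), Axin2 (-1.05, adjusted p = 1.87e-05), Znrf3 (-0.67, adjusted p = 0.000325) and Nkd1 (-0.59, adjusted p = 0.0137). Higher were Rnf43 (1.15, adjusted p = 8.62e-05) and Sp5 (0.58, adjusted p = 0.0328). Nkd1 did not pass without E10.5 replicate 1 (-0.37, adjusted p = 0.0875) or E12.5 replicate 1 (adjusted p = 0.0592), with only these 2 stages fitted (0.0609), or with the percentage of alignments that fell outside genes as a covariate (-0.12, adjusted p = 0.755). Sp5 did not pass without any of the 3 E10.5 replicates (adjusted p = 0.0802, 0.0746 and 0.0533 without replicates 1, 2 and 3) or without E12.5 replicate 1 (0.0503) or 2 (0.38, adjusted p = 0.154). It also did not pass with limma-voom (adjusted p = 0.0732), without the filter on low counts (0.0699), with only these 2 stages (0.0869) or with the covariate (0.281). Apcdd1 (log2 fold change 0.33, adjusted p = 0.259) passed without E10.5 replicate 1 (0.68, adjusted p = 0.0179) and without the filter (0.0124), and Notum (-0.53, adjusted p = 0.287) without E10.5 replicate 2 (-0.90, adjusted p = 0.046).

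At E14.5, 4 members were higher than at E10.5 and 2 lower, against 36.6% and 33.8% of all tested genes. Higher were Apcdd1 (log2 fold change 1.52, adjusted p = 7.47e-05), Sp5 (1.32, adjusted p = 7.01e-05), Rnf43 (0.97, adjusted p = 0.000183) and Tcf7 (0.33, adjusted p = 0.0357). Lower were Lef1 (-1.02, adjusted p = 1.37e-05) and Axin2 (-1.05, adjusted p = 7.12e-06). The Tcf7 call was lost without E10.5 replicate 2 (adjusted p = 0.175) or 3 (0.142), E11.5 replicate 1 (0.052), or E14.5 replicate 1 (0.0709) or 2 (0.114). With the covariate neither Tcf7 (0.47, adjusted p = 0.162) nor Rnf43 (0.55, adjusted p = 0.16) passed. Notum (log2 fold change 0.07, adjusted p = 0.875) passed without E10.5 replicate 1 (0.82, adjusted p = 0.0355). Nkd1 (0.12, SE 0.18), Nkd2 (-0.06, SE 0.13) and Znrf3 (-0.12, SE 0.12) were not called, which does not show that their levels were equal.

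Per length, Axin2 had the highest mean among the members at E10.5 (39.7 ± 7.5 TPM), E11.5 (82.4 ± 1.6 TPM) and E12.5 (23.3 ± 6.0 TPM), and Tcf7 at E14.5 (52.2 ± 2.5 TPM). At E11.5 Axin2, Nkd1 (81.8 ± 3.4 TPM) and Apcdd1 (79.4 ± 5.1 TPM) overlapped. Lef1 ranked 4 there, at 62.6 ± 6.6 TPM, apart from both neighbours. At E10.5 Lef1 (11.0 ± 2.5 TPM) overlapped with Apcdd1 above it and Znrf3 below it. At E12.5 it ranked 8 at 4.81 ± 0.82 TPM, overlapping with Sp5 just below. At E14.5 Lef1 ranked 9 at 7.93 ± 0.75 TPM, overlapping with Sp5 just above, while Tcf7 overlapped with Apcdd1 (50.2 ± 5.6 TPM). Notum had the lowest mean at every stage, 1.61 ± 0.39 to 3.62 ± 0.41 TPM, and at E10.5 overlapped with Sp5. Its TPM was taken over all its exons, 38.1% of which overlap genes on the opposite strand. Reads there may have been counted to neither gene, so its TPM may be too low and its rank is not settled.

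Other genes of the pathway were read from 4 lists. In the core machinery 7 of 31 genes were higher and 1 lower at E11.5, 6 higher and 6 lower at E12.5, and 3 higher and 8 lower at E14.5, with medians of 0.03, -0.09 and -0.12 on the log2 scale. Of all tested genes 12.2% were higher and 12.9% lower at E11.5, 27.1% and 22.2% at E12.5, and 23.0% and 24.0% at E14.5, and each list is to be read against these shares. The 6 core genes called each way at E12.5 are 19.4% of the list. Ctnnb1, which encodes beta-catenin, measured 1236 ± 71, 1503 ± 31, 1233 ± 61 and 985.4 ± 61.1 CPM over the 4 stages. The corepressor Tle2 rose at every step and measured 4.29 ± 1.41, 7.38 ± 0.17, 27.4 ± 1.6 and 50.7 ± 0.75 CPM. Its relatives in the list had lower means at E14.5 than at E12.5. Tle1 averaged 63.2 and 89.9 CPM at these stages, Tle3 106.6 and 151.9 CPM, and Tle4 45.5 and 80.4 CPM. Among 15 other genes known to respond to Wnt signals in some tissues, 5 were higher and 4 lower at E11.5, 3 higher and 5 lower at E12.5, and 7 higher and 3 lower at E14.5. Tnfrsf19, a receptor of the TNF family, measured 91.6 ± 7.1, 224.1 ± 10.1, 46.6 ± 4.5 and 146.4 ± 16.7 CPM over the stages. The secreted inhibitor Dkk1 measured 9.43 ± 3.71, 48.7 ± 4.6, 6.13 ± 1.21 and 17.6 ± 2.8 CPM. Lgr5, a receptor for R-spondins, was 2.26 higher at E12.5 than at E11.5 on the log2 scale (adjusted p = 4.58e-06).

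Of the 11 ligands mostly tied to the canonical branch 10 were tested. At E11.5 7 were higher and 3 not called, at E12.5 5 were lower and 5 not called, and at E14.5 7 were higher and 3 not called, with medians of 1.33, -1.58 and 1.09 on the log2 scale. Wnt7b measured 11.8 ± 4.0, 88.5 ± 8.9, 19.1 ± 6.4 and 32.4 ± 3.8 CPM over the stages, and Wnt10b 2.49 ± 1.11, 14.3 ± 2.0, 3.82 ± 0.51 and 20.1 ± 2.6 CPM. Wnt9b measured 25.0 ± 5.0, 71.0 ± 6.9, 2.43 ± 1.23 and 3.29 ± 1.14 CPM. It was lower at E12.5 than at E11.5 (log2 fold change -4.86, adjusted p = 2.39e-07) and not called at E14.5 against E12.5 (0.42, adjusted p = 0.29). Wnt3 measured 11.8 ± 2.5, 30.8 ± 2.4, 1.44 ± 0.58 and 9.85 ± 1.18 CPM. It was lower at E12.5 than at E11.5 (log2 fold change -4.41, adjusted p = 1.27e-07) and higher at E14.5 than at E12.5 (2.76, adjusted p = 1.49e-06). R-spondins protect Frizzled by clearing Rnf43 and Znrf3 from the membrane. Of the 6 genes for R-spondins and the receptors Lgr4 and Lgr6, 2 were higher and 4 not called at E11.5, 2 higher and 2 lower at E12.5, and 3 higher and 2 lower at E14.5. Rspo3 measured 6.33 ± 1.32, 18.6 ± 2.4, 35.6 ± 8.3 and 13.9 ± 2.2 CPM over the stages, with its highest mean at E12.5. Most of the other genes of this list had their highest mean at E14.5.

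Stage profiles most like that of Lef1 were sought among 12344 tested genes with a mean of at least 5 CPM in their highest stage. The measure was the root mean square difference between centred log2 stage means over the 4 stages, and members of the list ranked among all candidates. Nkd1 ranked 10 (difference 0.705) and Axin2 12 (0.707). Apcdd1 ranked 71 and Nkd2 177, Sp5 751, Znrf3 813, Tcf7 7179 and Rnf43 9440. Notum was below the minimum level. The 8 nearest genes outside the list were Gm4737 (0.287), Hmgb1-ps7 (0.555), Gm15387 (0.562), Hey2 (0.614), Pantr1 (0.624), Fam196b (0.645), Sstr1 (0.686) and Gm8210 (0.687). Hey2, a Notch-responsive repressor, measured 10.6 ± 2.1, 90.5 ± 20.2, 6.53 ± 0.84 and 17.3 ± 2.5 CPM over the stages. Pantr1, a long noncoding RNA gene, measured 16.0 ± 12.8, 38.5 ± 11.0, 6.25 ± 1.60 and 3.45 ± 0.31 CPM.

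For Gm4737, Hmgb1-ps7, Gm15387 and Gm8210, E11.5 replicate 2 alone raised the E11.5 mean: Gm4737 measured 1.85, 19.5 and 1.94 CPM in the 3 libraries of that stage. Counts of pseudogenes and gene copies also depend on how reads were shared with near-identical sequences. With stage medians in place of means, a choice made after these values were seen, the 8 nearest genes were Irx6, Hey2, Fam196b, Pantr1, Pax3, Irx3, Tmem132c and Epha8, of which 3 were also nearest by means. Pax3, a paired-box factor of neural crest, measured 26.1 ± 9.5, 75.0 ± 3.5, 10.1 ± 5.7 and 26.8 ± 5.7 CPM over the stages. By medians Nkd1 ranked 5 and Axin2 7 among 12318 candidates.

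**Figure D5:**
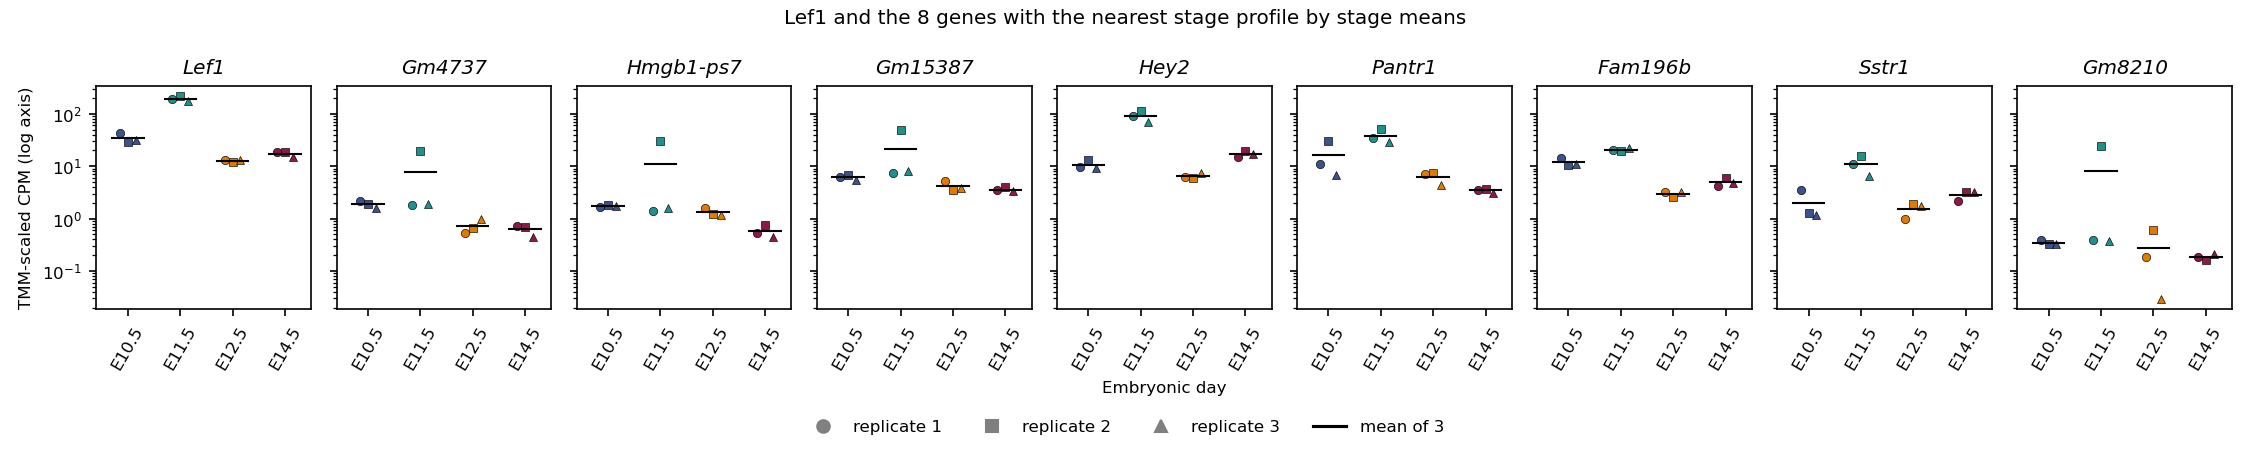
TMM-scaled CPM on a log axis of Lef1 and the 8 genes with the nearest stage profile by means, by embryonic day, with a point per library and a line at the mean of 3. Gm4737, Hmgb1-ps7, Gm15387 and Gm8210 are high in 1 E11.5 library, replicate 2, whereas all 3 E11.5 libraries of Hey2 lie at 70.6 to 111 CPM.

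Libraries held 28294837 to 33941430 counts in genes. All 11 maxillary mesenchyme markers and all 10 epithelial markers were counted at every stage, and none of these was at 0. The mesenchyme markers together reached 2229 to 2378 CPM at E11.5, their highest stage. They stood at 1436 to 1874 CPM in E10.5 libraries, 1262 to 1537 CPM in E12.5 libraries and 1312 to 1371 CPM in E14.5 libraries. Of the 11, 5 were higher and 3 lower at E11.5, and 1 was higher and 6 lower at E12.5. Each marker list is to be read against the shares of all tested genes. These were 12.2% higher and 12.9% lower at E11.5, 27.1% and 22.2% at E12.5, and 23.0% and 24.0% at E14.5. The epithelial markers together stood at 563 to 660 CPM in E10.5 libraries, 824 to 887 CPM in E11.5 libraries, 696 to 1234 CPM in E12.5 libraries and 1208 to 1832 CPM in E14.5 libraries. For them E12.5 overlapped with E11.5. Of the 10, 3 were higher and 2 lower at E12.5 against E11.5, shares of 30% and 20%, near those of all tested genes. At E14.5 against E12.5, 3 were higher and 4 lower, with a median log2 fold change of -0.18. The keratin gene Krt5 averaged 529.8 CPM at E14.5 and 65.1 CPM at E12.5, while Epcam, an epithelial adhesion gene, averaged 57.0 CPM at E14.5 and 139.9 CPM at E12.5. The 7 neuronal markers summed to 306 to 629 CPM at E10.5 and to 71.3 to 263 in the libraries of the later stages. Neurog1 had 2 counts in all at E14.5. Of the 7, 5 were lower at E11.5 and 3 higher at E12.5. The 6 skeletal muscle markers summed to 19.8 to 29.0 CPM at E10.5 and E11.5, to 107 to 212 CPM in E12.5 libraries and to 1197 to 1514 CPM in E14.5 libraries, and all 6 were higher at E12.5 than at E11.5. The sum of the 4 erythroid markers was highest at E11.5, at 5244 to 6625 CPM, with 3352 to 3856 CPM in E10.5 libraries, 2336 to 3268 CPM in E12.5 libraries and 177 to 399 CPM in E14.5 libraries. Of the 4, 1 was higher at E11.5 and 3 were lower at E12.5. The globin gene Hbb-y measured 1692, 3795, 2113 and 241 CPM on average over the stages. The 5 endothelial markers summed to 137 to 169 CPM in E11.5 libraries, 3 of them lower than at E10.5, and to 227 to 345 CPM in E12.5 libraries, where all 5 were higher than at E11.5. Of the 4 leukocyte markers 3 were lower at E11.5 and 2 higher at E12.5. Markers that could come from eye, olfactory or brain tissue were called at E12.5 against E11.5 in all 5 tested cases, 4 higher and 1 lower. The 7 genes of that list summed to 27.0 to 53.6 CPM in E11.5 libraries and 18.3 to 105 CPM in E12.5 libraries. In E14.5 libraries they summed to 23.2 to 24.9 CPM, so the E12.5 libraries differed most among themselves. Of 4 mandibular patterning genes 3 were tested, and at E12.5 against E11.5 1 was higher, 0 lower and 2 not called. The higher one, Hand2, measured 12.7 ± 3.8 CPM at E12.5 and 0.339 ± 0.233 CPM at E11.5 (log2 fold change 5.22, adjusted p = 1.02e-06). Dlx5 averaged 17.86 CPM at E12.5 and 20.55 CPM at E11.5, and Dlx6 averaged 5.62 and 5.38 CPM. With globin and mitochondrial genes left out of the fit, 7 members were still called higher at E11.5 and 9 lower at E12.5. The share of alignments outside annotated genes also moved with stage: E10.5 libraries had 1.92% to 4.88%, E11.5 libraries 2.16% to 2.42%, E12.5 libraries 5.03% to 5.43% and E14.5 libraries 5.78% to 6.21%. With that share as a covariate 6 of the 9 members lower at E12.5 kept the call. Over all tested genes the covariate left 2.22% higher and 1.56% lower at E12.5, against 27.1% and 22.2% without it. Nkd2 (log2 fold change -0.45, adjusted p = 0.261), Notum (-1.36, adjusted p = 0.388) and Sp5 (-1.43, adjusted p = 0.0715) did not pass, nor did the rise of Rnf43 (0.03, adjusted p = 0.978). The part of these marker lists and of that share in the members' changes was not tested. E14.5 is described in a block of its own in the labels, so stage and handling cannot be told apart there.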

How the data were processed

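Per the labels' protocols, libraries were made from 2 µg of RNA with an NEBNext Ultra kit; kits of this name do not keep the strand of the RNA. The authors deposited raw whole-number counts per Ensembl gene, 1 file per library. The submitters' processing notes list HTSeq 0.12.4, STAR 2.7.3a, FastQC and the build mm10. Which annotation release and strand setting were used is not given in the sources used here. At the end of each file 5 entries for alignments given to no gene, 14.3% to 18.6% of listed alignments, did not enter library sizes or tests. Symbols, coordinates and merged exon lengths came from GENCODE mouse release 21, which matched 53620 of 53801 identifiers.

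The analysis used edgeR 4.0.16 in R 4.3.3: filterByExpr with a minimum count of 10 (18365 genes), TMM scaling (factors 0.852 to 1.14), and a quasi-likelihood fit with 1 mean per stage. SE is the log2 fold change divided by the square root of F. The fit and the permutation test were tested on simulated data. Ratios had 0.5 added to each count. Profiles had 0.1 CPM added before the log. All pairs of libraries differed by more than sampling noise (chi-square per degree of freedom at least 4.69 within a stage). Reads carry no molecular identifiers.

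The 10 members and all lists were chosen with earlier results of these data known. All members are named. From each list of other pathway genes the rule allowed up to 4 called genes with the largest change at a step, plus Tcf7l1, Tcf7l2 and Ctnnb1, and the 8 genes nearest to Lef1. Chosen after seeing values, and so not by this rule, were Tle1, Tle3 and Tle4, the nearest genes by medians and genes on the opposite strand of a member. The alternatives changed the scaling, the filter and the test (limma-voom in limma 3.58.1, DESeq2 1.42.0), left out libraries or genes, or added a covariate, a replicate block or a minimum change of 1.5-fold.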

Additional observations from a re-analysis of the deposited data

How the results depend on the processing

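Of 1100 recomputed log2 fold changes of single members, 1024 kept direction and call, 48 lost the call and 7 gained it. No called value changed sign, and 21 that were not called did. The count of members higher at E11.5 was 7 to 8 and that of members lower at E12.5 was 9 to 9 with each library left out in turn. Leaving out a library gave 0 to 1 members lower at E11.5 (1 with all libraries), 0 to 1 higher at E12.5 against E11.5 (1), 5 to 6 higher at E14.5 against E12.5 (6), and 1 to 2 higher (2) and 4 to 6 lower (5) at E12.5 against E10.5. For E14.5 against E10.5 it gave 3 to 5 higher (4). A tested minimum change of 1.5-fold, by its own stricter construction, left 0 members lower at E11.5 and 0 higher at E12.5 against E11.5. It left 2 higher at E14.5 against E12.5, and 1 higher and 3 lower at E12.5 against E10.5. Of the 18365 tested genes it left 429, 1949, 1815, 2418 and 1061 in the same order. With the percentage of alignments outside genes added as covariate, 0 members were higher at E12.5 against E11.5. Against E10.5, 1 was higher at E12.5 and 2 at E14.5. Of the 18365 tested genes the covariate left 407, 2754 and 3576 higher in the same order. With it 4 members had a peak at E11.5 in place of 6. At E12.5 against E10.5, 1 member was higher with limma-voom and 1 with only the compared stages. Over all genes 5117 of 18365 and 4030 of 16963 were higher in these fits. The cause was not tested.

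The values that changed sign were all uncalled. Axin2 at E14.5 against E12.5 was 0.0186 with size factors of DESeq2, 0.0188 with DESeq2, 0.0023 with limma-voom, 0.0612 with the covariate, and -0.129 to 0.121 without 1 library. Nkd2 with the covariate was 0.27 at E12.5 and 0.40 at E14.5 against E10.5. Without 1 library it was -0.226 to 0.0403 for E12.5 and -0.213 to 0.0542 for E14.5, both against E10.5, and -0.0803 to 0.152 at E14.5 against E12.5. Nkd1 at E14.5 against E10.5 was -0.0923 to 0.336, and Notum was -0.903 to 0.225 for E12.5 and -0.313 to 0.824 for E14.5, both against E10.5.

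Replicate numbers were not taken as pairing the libraries. The correlation of deviations was over 0.1 in 5 of 18 same-numbered pairs. Its median was 0.0389 for these 18 and -0.0377 for 36 pairs with different numbers. Between E10.5 and E12.5 same-numbered pairs had 0.113, 0.248 and 0.252, and the others -0.227 to -0.0407. Of 12 libraries 8 correlated best with their own number, a hint of pairing from the data and not the design. With replicate number as a block the counts at the 3 steps were 7 higher and 1 lower, 1 higher and 9 lower, and 6 higher and 0 lower, as without it. Of the 8 genes nearest to Lef1, 3 remained with a minimum of 1 CPM, 6 with 1 CPM added before the log and 3 with stage medians. Depth limits Notum most, at 19 to 99 counts per library.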

Other observations

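At E10.5, E12.5 and E14.5 the members tended to be high or low in the same library. At E11.5 they did not, since replicate 2 was highest for 6 of the 10 and lowest for 4. At E10.5, 7 of the 10 were highest in replicate 1 and none was lowest there. At E12.5, 7 were highest in replicate 3 and 7 lowest in replicate 1. At E14.5, 8 were highest in replicate 2 and 8 lowest in replicate 3. At E10.5 the spread was widest for Notum (coefficient of variation 73.3%) and Apcdd1 (37.7%) and narrowest for Sp5 (2.67%). These orders are descriptions, and their source was not tested. The same orders were not computed over all tested genes, so they are not shown to be particular to the members.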
